A study of Mus musculus with 4 samples.

Results

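The genes of oxidative phosphorylation measured here are those whose name in the array files begins with Nduf, Uqcr, Atp5 (Atp5j excepted), Cox4, Cox5, Cox6, Cox7 or Cox8, or is Sdha, Sdhb, Sdhc, Sdhd, Cyc1 or Cycs. This naming rule, which uses no measured value, found 136 of 55681 non-control probes and 91 of 26680 gene names. Of these 91 genes, 88 were tested, among 19167 genes tested in all. The other 3, Cox7b2, Cox8b and Cox8c, were not well above background on any of the 4 arrays. By the roles of their products, 80 of the 88 are subunits of the respiratory complexes or cytochrome c, and 8 carry such a name without being one (Ndufaf1, Ndufaf2, Ndufaf3, Ndufaf4, Ndufa4l2, Cox4nb, Atp5s and Atp5sl).

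The study compared 2 samples of miR-155 knockout (miR-155-/-) with 2 samples of wild-type (miR-155+/+) mouse T cells on one-colour Agilent arrays, and its title asks how this microRNA of activated lymphocytes bears on effector genes and IL-23 responsiveness of T helper 17 (Th17) cells. All cells were cultured with antibodies against CD3e and CD28, TGF-beta and IL-6, and all were sorted as CD4+ cells positive for a red fluorescent (RFP) reporter of IL-17F. The labels give neither age nor sex and tie no array to an animal or a culture, although the design text calls the replicates biological, so a p-value reflects the spread among these arrays, which may be technical. Values below are log2 processed signals minus the 75th percentile of the array, and differences are knockout minus wild type on that scale.

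Oxidative phosphorylation is the process by which mitochondria make ATP. Complex I and complex II pass electrons to ubiquinone, complex III passes them on to cytochrome c, complex IV passes them to oxygen, and complex V, the ATP synthase, uses the proton gradient that complexes I, III and IV build. Most subunits are encoded in the nucleus, while a small core set is encoded in mitochondrial DNA, and assembly needs both. The naming rule covers most of the nuclear set, but not Atp5j or genes that the array files carry under other names, such as Ndufb1, Atp5md and Atp5mpl. Activated T cells use this pathway beside glycolysis.

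The probes behind the differences described most closely below are shown with their 60-base sequences and their places in the array files, on build mm9. The probe of Ndufb8 (chr19:44624855-44627199, minus strand), the lower member with an unadjusted p under 0.05, spans 2345 bases of the genome and thus an exon junction, as do the probe of Uqcrc1 (chr9:108851008-108851487, plus strand) and that of Cox7a1 (chr7:30970337-30970948, plus strand). Those of ND1 (chrM:2898-2957, plus strand) and ND2 (chrM:4670-4729, plus strand) lie in mitochondrial DNA, and the files place that of ND3 on chromosome 1 (chr1:24619613-24619672, minus strand).
Ndufb8: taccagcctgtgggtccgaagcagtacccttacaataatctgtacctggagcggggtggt
Uqcrc1: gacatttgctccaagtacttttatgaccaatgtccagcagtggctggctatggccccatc
Cox7a1: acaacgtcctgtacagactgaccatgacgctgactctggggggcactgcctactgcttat
ND1: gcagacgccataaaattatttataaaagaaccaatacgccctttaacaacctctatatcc
ND2: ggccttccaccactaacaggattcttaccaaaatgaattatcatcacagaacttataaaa
ND3: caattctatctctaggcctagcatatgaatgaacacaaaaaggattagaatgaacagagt

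No gene of the set passed the threshold. limma with Benjamini-Hochberg adjustment over all genes called 0 of the 88 at an adjusted p under 0.05, as it called 0 (0%) of all 19167 genes, and the smallest adjusted p among the 88 was 0.311. At an unadjusted p under 0.05, 1 gene was higher, Cox6a2, and 1 lower, Ndufb8, beside 7.76% of all genes higher and 3.61% lower. Of the 88 genes, 44 had a higher and 44 a lower mean in knockout cells, beside 55.2% and 44.8% of all genes. Their median difference was 0.0004, beside 0.03 for all genes. The size of the differences was small as well, since 4 of 88 lay beyond 0.5 in either direction (4.55%), beside 16.2% of all genes. Of these 4, Ndufs5 and Ndufs8 were far dimmer on knockout array 1, as described below. The 88 had medians of 5.06 to 5.21 per array, against -0.26 to -0.22 for all genes, so the shares compare genes of unlike brightness.

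Both knockout arrays lay above both wild-type arrays for 12 of the 88 genes and below them for 20, beside 27.0% and 20.2% of all genes. The median absolute difference between the genotype means was 0.085, while the replicates differed from each other by a median of 0.154 in the knockout and of 0.129 in wild type. The genes moved together between replicates, as 69 of 88 were higher on knockout array 1 than on knockout array 2 and 75 of 88 higher on wild-type array 2 than on wild-type array 1, beside 12214 and 12149 of the 19167 genes. Shifting each array by its median in place of its 75th percentile moved the median of the 88 genes to -0.18 and that of all genes to -0.15, and 63 of the 88 genes (71.6%) then lay lower without overlap and 4 (4.55%) higher, beside 43.2% and 12.0% of all genes at that scaling. The sign of a small difference thus depended on the scaling, with 37 of the 88 genes changing sign. The median of the 88 lay -0.03 from that of all genes. Either scaling shifts all genes of an array by the same constant, so this distance cannot change between them. In RNA from sorted populations, fewer cells of a type and less RNA per cell cannot be told apart.

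**Figure D1:**
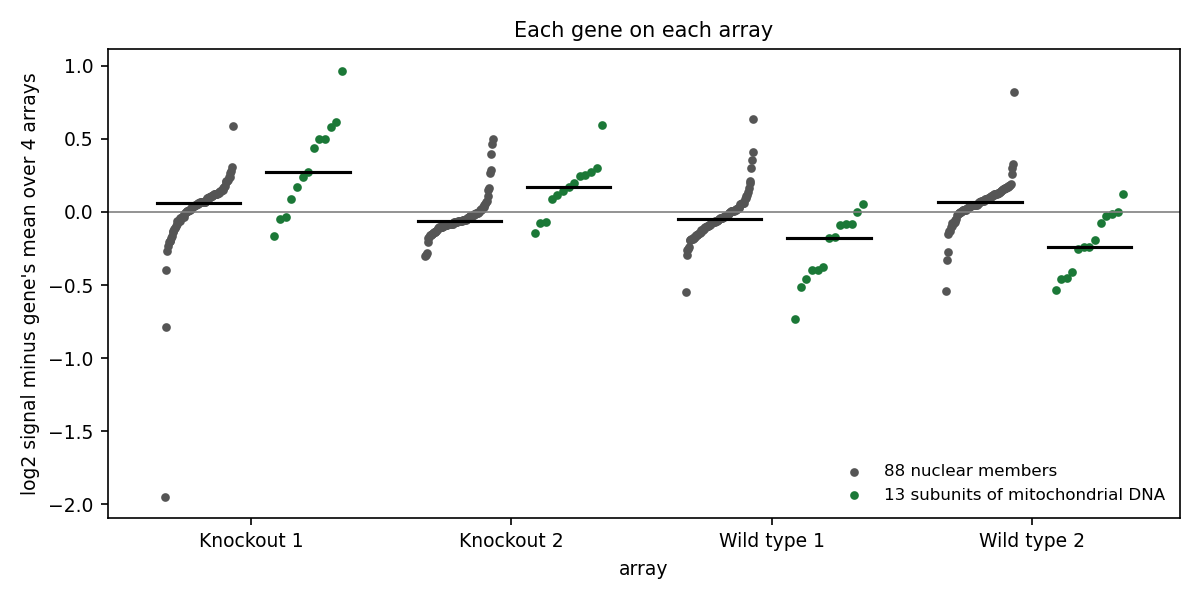
Each point is 1 gene on 1 array, as its log2 signal minus the gene's mean over the 4 arrays, for the 88 nuclear genes (grey) and the 13 subunits of mitochondrial DNA (green), with a black line at the median. The grey medians differ as much between replicates as between genotypes, while the green medians are above 0 on both knockout arrays and below 0 on both wild-type arrays; the lowest grey point is Ndufs5 on knockout array 1.

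Knockout array 1 differed from the others in evenness. The multiplicative detrending surface of the scanner software had an SD of 0.157 on it, against 0.0542 on knockout array 2 and 0.0498 to 0.0557 on the wild-type arrays, and only 0.799% of its well-above-background spots had been divided by it, against 100% elsewhere. Near 2 corners along the right side of the arrays, here called corner blocks, some spots were far dimmer on part of the arrays, and 6 of the 88 genes are given by a probe there (Ndufs5, Ndufs8, Ndufa6, Ndufa12, Cox4i2 and Cox5a). Of these 6, Ndufs5 and Ndufs8 were far dimmer on knockout array 1 than on the other arrays. The wild-type arrays lay in one row of the slide and the knockout arrays in the other, so an effect of the row cannot be told apart from that of genotype. Per array, 63.5% to 69.8% of spots passed the background test and none were saturated, and precision is limited by the number of arrays. The T cell gene Cd4 had values of 4.83 and 5.11 in knockout cells, against 5.13 and 5.09 in wild-type cells. Il17f, whose reporter was sorted on, had values of 1.33 and 1.73 in knockout cells, against 3.46 and 3.58 in wild-type cells, and miR-155 itself was not analysed here.

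Complex I, the NADH dehydrogenase, gave 36 of the tested genes, of which 14 had higher and 22 lower means in knockout cells, with a median of -0.05. Its 7 core subunits, which carry the flavin and the iron-sulfur clusters, had 2 higher and 5 lower means and a median of -0.12. Ndufv1, the core subunit that oxidises NADH, had values of 5.04 and 4.89 in knockout cells, against 4.75 and 4.99 in wild-type cells, so the groups overlapped. Ndufs1, the largest iron-sulfur subunit, overlapped as well, at 4.36 and 4.11 in knockout cells and 4.0 and 4.25 in wild-type cells.

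Among the core subunits, 3 lay lower on both knockout arrays than on either wild-type array, beside 20.2% of all genes. Ndufs3 and Ndufv2 were among them. Ndufs3 had values of 5.18 and 5.21 in knockout cells, against 5.36 and 5.44 in wild-type cells, a difference of -0.20 ± 0.12 (SE). Ndufv2, an iron-sulfur subunit beside the NADH site, differed by -0.14 ± 0.13 (SE), about as large as its error. Ndufs8, whose groups overlapped, had the lowest difference of the core, -0.52 ± 0.38 (SE). Its values were 1.84 and 2.89 in knockout cells, against 2.83 and 2.96 in wild-type cells. Its probe lies in a corner block, and without knockout array 1 the difference was 0.00.

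The 29 accessory subunits of complex I, which surround the core, had 12 higher and 17 lower means and a median of -0.02. Ndufb8, a subunit of the membrane arm, had values of 5.33 and 5.28 in knockout cells, against 5.92 and 5.74 in wild-type cells. Both knockout arrays were lower than either wild-type array. The difference was -0.53 ± 0.13 (SE), a 1.44-fold lower signal, with an unadjusted p of 0.0156 and an adjusted p of 0.341 by limma. It kept its direction in every alternative run, between -0.71 and -0.43.

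Ndufs5, an accessory subunit of the intermembrane side, had the largest difference of the set, -1.45 ± 0.85 (SE; limma adjusted p 0.549). Its values were 2.83 and 5.27 in knockout cells, against 5.41 and 5.59 in wild-type cells, so that knockout array 1 alone set its size. Its only probe lies in a corner block, and without that array the difference was -0.23. Ndufb5, in the membrane arm, was more even, at 4.28 and 4.22 in knockout cells and 4.51 and 4.57 in wild-type cells, a difference of -0.28 ± 0.12 (SE). Ndufa6 and Ndufa12, both given by corner-block probes, differed by -0.24 and -0.21, and Ndufb6 by -0.21, with groups that did not overlap.

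Other accessory subunits lay on the opposite side. Ndufb3 had values of 5.04 and 4.71 in knockout cells, against 4.57 and 4.60 in wild-type cells, a difference of 0.28 ± 0.16 (SE). Ndufb11 had values of 7.18 and 7.02 in knockout cells, against 6.72 and 6.97 in wild-type cells, a difference of 0.26 ± 0.16 (SE). Both belong to the membrane arm, as does Ndufb8, which differed the other way. Ndufa11 differed by 0.18 ± 0.17 (SE), while Ndufb9, Ndufa10 and Ndufs6 had differences of 0.10, 0.09 and 0.09 and turned negative with median scaling. The widely used accessory markers Ndufa9 and Ndufa13 had differences of 0.05 and 0.07, and in both the groups overlapped.

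Complex II, succinate dehydrogenase, also an enzyme of the tricarboxylic acid cycle, is encoded wholly in the nucleus by 4 genes, and 1 of them had a higher and 3 a lower mean. Sdha, the flavoprotein, had values of 4.34 and 4.10 in knockout cells, against 4.20 and 4.28 in wild-type cells. Sdhb, the iron-sulfur subunit, had values of 6.11 and 5.78 in knockout cells, against 5.68 and 5.92 in wild-type cells. The knockout values bracketed or crossed those of wild type in both genes. The membrane anchors Sdhc and Sdhd differed by -0.06 ± 0.13 and -0.11 ± 0.13 (SE). Of the 4 genes only Sdhd had groups that did not overlap, beside 20.2% of all genes lower without overlap.

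**Figure D2:**
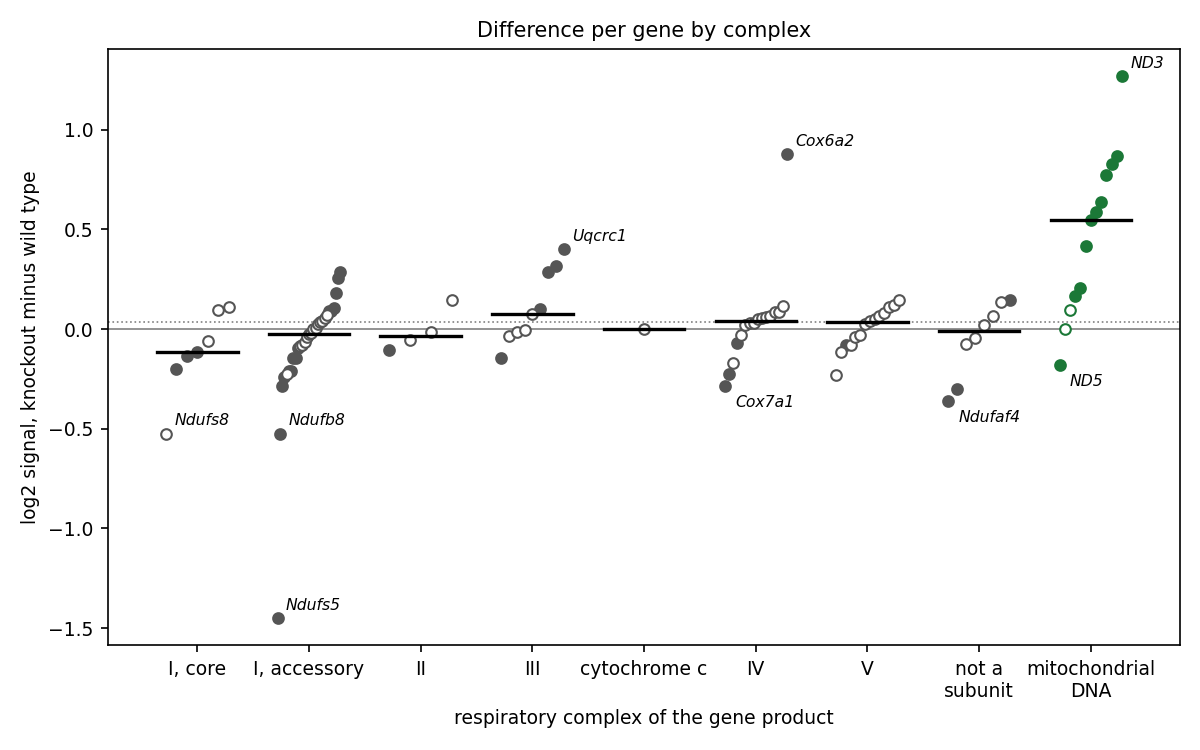
Each point is the log2 difference of 1 gene, knockout minus wild type, by respiratory complex, filled where both knockout arrays lie beyond both wild-type arrays and open where the groups overlap; black lines are medians and the dotted line is the median of all 19167 genes (0.03). The medians of the nuclear groups lie between -0.12 and 0.08, with Ndufs5 (-1.45) and Cox6a2 (0.87) farthest out, and that of the subunits encoded in mitochondrial DNA (green) is 0.55.

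Complex III, the cytochrome bc1 complex, had 5 higher and 4 lower means among its 9 tested genes and a median of 0.08. Of these, 4 lay higher in knockout cells without overlap and 1 lower, beside 27.0% and 20.2% of all genes. Uqcrc1, a core protein of the matrix side, had values of 3.42 and 3.95 in knockout cells, against 3.19 and 3.38 in wild-type cells, a difference of 0.40 ± 0.23 (SE). The lower knockout value exceeded the higher wild-type value by little, and the difference was 0.14 without knockout array 2 and 0.67 without knockout array 1.

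Uqcrfs1, the Rieske iron-sulfur protein, had values of 5.13 and 4.97 in knockout cells, against 4.65 and 4.89 in wild-type cells, a difference of 0.28 ± 0.15 (SE). Uqcr11, a small subunit, had values of 5.30 and 5.06 in knockout cells, against 4.79 and 4.95 in wild-type cells, a difference of 0.31 ± 0.15 (SE). Their limma adjusted p was 0.524 for Uqcrfs1 and 0.508 for Uqcr11. Cyc1, cytochrome c1, differed by 0.10 ± 0.13 (SE), which turned to -0.08 with median scaling.

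Uqcrc2, the other core protein, went the opposite way to Uqcrc1. Its values were 5.25 and 5.18 in knockout cells, against 5.35 and 5.38 in wild-type cells, a difference of -0.15 ± 0.12 (SE). Its probe is printed at 10 places on each array, and the log2 signals of the spots used had an SD of 0.086 and 0.040 on the knockout arrays and of 0.051 and 0.039 on the wild-type arrays. For this gene the spread between spots on knockout array 1 was thus larger than on the others. Cycs, the soluble carrier cytochrome c, had values of 5.36 and 5.15 in knockout cells and 5.11 and 5.40 in wild-type cells, a difference of 0.00 ± 0.17 (SE).

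Complex IV, cytochrome c oxidase, had 16 of its 19 genes tested, with 11 higher and 5 lower means and a median of 0.04. The widely expressed subunits showed little difference. Cox4i1 had values of 6.83 and 6.75 in knockout cells, against 6.78 and 6.69 in wild-type cells. Cox6c differed by 0.02 ± 0.15, Cox7c by -0.03 ± 0.13 and Cox8a by 0.08 ± 0.14 (SE), all with groups that overlapped. Cox5b had values of 4.80 and 4.91 in knockout cells, against 5.03 and 5.13 in wild-type cells, a difference of -0.23 ± 0.13 (SE), which was 0.01 when knockout array 1 was divided by its own detrending surface. Cox5a differed by -0.07 ± 0.12 (SE).

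Several complex IV subunits exist as isoforms of different tissues. Cox6a2, the heart and skeletal muscle isoform, had values of -1.90 and -2.21 in knockout cells, against -3.04 and -2.82 in wild-type cells. Both knockout arrays were higher, and the probe was well above background on all 4 arrays. The difference was 0.87 ± 0.17 (SE), a 1.83-fold higher signal, with an unadjusted p of 0.00648 and an adjusted p of 0.311 by limma. The liver-type isoform Cox6a1 had values of 8.21 and 8.0 in knockout cells, against 7.95 and 8.20 in wild-type cells, a difference of 0.03 ± 0.16 (SE). Cox7a1, the other muscle isoform tested, lay on the opposite side to Cox6a2, at 2.30 and 2.29 in knockout cells and 2.60 and 2.56 in wild-type cells. Its difference was -0.29 ± 0.12 (SE), with a limma adjusted p of 0.466, and it was 0.06 with knockout array 1 divided by its surface.

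The remaining isoforms had groups that overlapped. Cox7a2, the widely expressed partner of Cox7a1, differed by 0.11 ± 0.14 and Cox7a2l, a factor of supercomplex assembly, by 0.05 ± 0.14 (SE). Cox6b1 and the testis isoform Cox6b2 differed by 0.06 ± 0.13 and 0.06 ± 0.22, and Cox4i2, the isoform of lung, by -0.17 ± 0.20 (SE). Ndufa4, named for complex I but a subunit of complex IV, differed by 0.03 ± 0.15 and its relative Ndufa4l2 by 0.13 ± 0.42 (SE). The muscle isoform Cox8b and the testis isoform Cox8c were not well above background, and neither was Cox7b2, so no difference is given for them.

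Complex V, the ATP synthase, had 8 higher and 6 lower means among its 14 tested genes and a median of 0.03. Groups did not overlap in 1 gene, which was lower, beside 27.0% of all genes higher and 20.2% lower. Atp5b, the catalytic beta subunit, had values of 7.39 and 7.10 in knockout cells, against 7.16 and 7.39 in wild-type cells. Atp5a1, the alpha subunit, had values of 6.08 and 5.77 in knockout cells, against 5.71 and 5.92 in wild-type cells. The ranges of the genotypes crossed in both genes. Atp5c1, the gamma subunit of the central stalk, differed by 0.07 ± 0.17 (SE), and Atp5d, the delta subunit, by -0.23 ± 0.23 (SE), with the 5.17 of knockout array 1 apart from the 5.73 of knockout array 2 and from 5.62 and 5.75 in wild-type cells.

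The c-ring of the synthase is encoded by 3 genes that give the same mature protein. Atp5g1, Atp5g2 and Atp5g3 differed by -0.12 ± 0.14, 0.02 ± 0.13 and 0.14 ± 0.18 (SE), each with groups that overlapped. Atp5o, the subunit that confers oligomycin sensitivity, had values of 4.18 on both knockout arrays, against 4.21 and 4.31 in wild-type cells. It was the gene of this complex whose groups did not overlap, at -0.08 ± 0.12 (SE). For Atp5j2, Atp5k and Atp5l, the f, e and g subunits, the files place the brightest probe on another chromosome than the gene, and their differences were 0.08, 0.04 and 0.12. Atp5j, which the naming rule leaves out and which lies on the chromosome of the miR-155 locus, differed by -0.03 ± 0.16 (SE).

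The 8 genes with such a name that are not subunits had 4 higher and 4 lower means. Ndufaf4, an assembly factor of complex I, had values of 1.65 and 1.40 in knockout cells, against 1.77 and 2.01 in wild-type cells, a difference of -0.36 ± 0.17 (SE). Atp5sl, which RefSeq names Dmac2 for the assembly of the distal membrane arm of complex I, had values of 3.92 and 4.02 in knockout cells, against 4.23 and 4.31 in wild-type cells, a difference of -0.30 ± 0.12 (SE). Both lay lower without overlap, with limma adjusted p-values of 0.494 for Ndufaf4 and 0.471 for Atp5sl. Atp5s, now Dmac2l, differed by 0.15 ± 0.13 (SE), which was -0.03 with median scaling. Ndufaf1, Ndufaf2 and Ndufaf3 differed by -0.07, -0.04 and 0.02, and Cox4nb, which RefSeq names Emc8 and which acts in the endoplasmic reticulum, by 0.06.

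Different probes of a gene did not always give the same sign. Of the 88 genes, 30 had more than 1 tested probe, and in 14 of these the probes had both signs (among them Atp5c1, Atp5f1, Atp5g1, Atp5j2, Atp5k, Atp5l, Cox7c, Cox8a, Ndufb11, Ndufb5, Ndufv3, Uqcr10 and Uqcrq). The median distance between the highest and the lowest probe of a gene was 0.108. In 4 genes, 1 probe lay higher and another lower without overlap. In Ndufv3, an accessory subunit beside the NADH site, the brightest probe gave -0.15 and another 0.36, the second from 2.42 and 2.34 in knockout cells, against 1.97 and 2.07 in wild-type cells. Averaged over its tested probes, the difference of Ndufv3 was 0.06, so this gene has no direction that all its probes share.

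Other genes differed in how near their probes lay. The 2 probes of Uqcr11 gave 0.31 and 0.30, although the files place the second on another chromosome, while the 3 probes of Ndufb11 gave 0.26, 0.22 and -0.09. The 4 probes of Ndufb5 lay farthest apart of the 30 genes. The brightest gave -0.28, one in a corner block -0.15, and a pair of dim probes gave -0.13, from -2.95 and -3.44 in knockout cells and -3.43 and -2.72 in wild-type cells, and 0.55, from -3.35 and -3.51 in knockout cells and -4.29 and -3.66 in wild-type cells. The second probe of Cox8a, in a corner block, had values of 3.06 and 6.93 in knockout cells, against 3.48 and 6.85 in wild-type cells, and thus split the replicates of both genotypes. The brightest Cox8a probe did not, at 7.60 and 7.40 in knockout cells and 7.38 and 7.44 in wild-type cells.

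**Figure D3:**
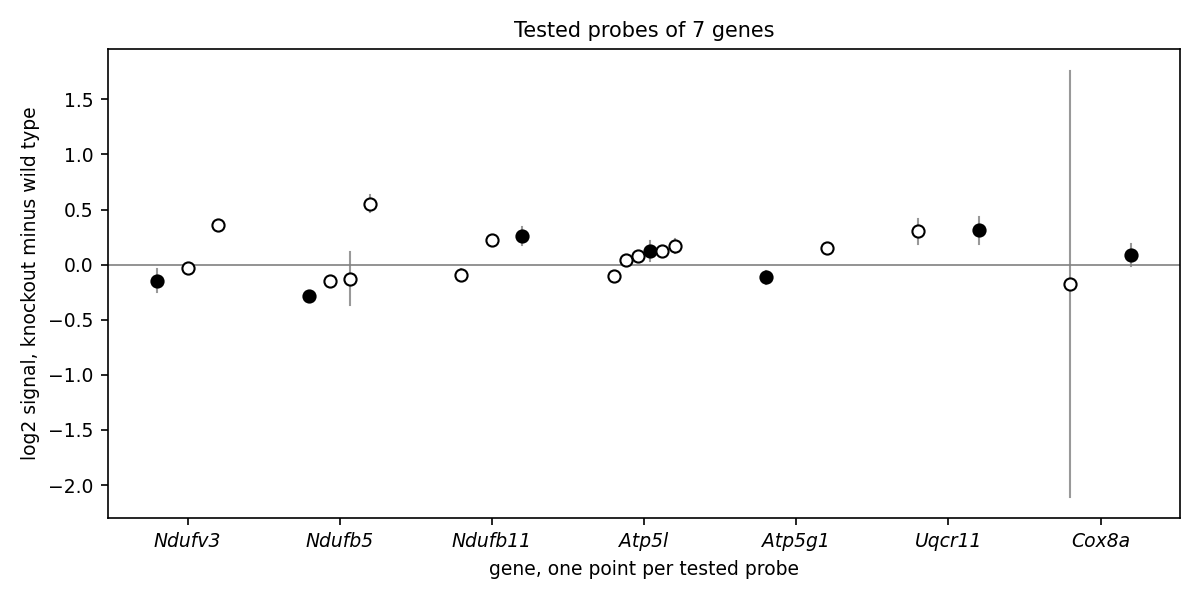
Each point is the log2 difference, knockout minus wild type, of 1 tested probe of 7 genes, with the brightest probe filled, and grey lines run between the values of the knockout arrays, each minus the wild-type mean. Ndufv3 has probes on both sides of 0 (-0.15 and 0.36), and the long line belongs to the corner-block probe of Cox8a.

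The subunits encoded in mitochondrial DNA, which the naming rule does not cover, had larger differences. Of the 13, 12 had higher and 1 a lower mean in knockout cells, and both knockout arrays lay above both wild-type arrays in 10 and below in 1, beside the 27.0% and 20.2% of all genes given above. The median difference was 0.55. At an unadjusted p under 0.05, 7 of the 13 were higher, beside 7.76% of all genes, and limma called 0 of the 13 at an adjusted p under 0.05. ND3, a membrane subunit of complex I, had values of 6.96 and 6.29 in knockout cells, against 5.26 and 5.46 in wild-type cells, a difference of 1.27 ± 0.27 (SE; limma adjusted p 0.313). ND2 had values of 6.98 and 6.62 in knockout cells, against 5.90 and 5.95 in wild-type cells, a difference of 0.87 ± 0.17 (SE). ND1 had values of 4.89 and 4.67 in knockout cells, against 3.88 and 4.14 in wild-type cells, a difference of 0.77 ± 0.17 (SE).

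Not all of them shared this. The complex V subunits ATP8 and ATP6 differed by 0.83 ± 0.17 and 0.64 ± 0.15 (SE) and CYTB, the cytochrome b of complex III, by 0.41 ± 0.13 (SE). The complex IV subunits COX1, COX2 and COX3 differed by 0.00, 0.10 and 0.17, with COX3 at -0.01 under median scaling, and ND5 by -0.18 ± 0.12 (SE). The probe of COX1 lies in a corner block, and its difference was 0.46 when knockout array 1 was divided by its detrending surface. Within complex I the 7 subunits of mitochondrial DNA had a median of 0.59, against -0.05 for the 36 nuclear ones, and within complex IV the medians were 0.10 and 0.04. The 13 transcripts come from shared precursors, so they are not independent of each other, and no test was run between the 2 sets.

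The array files place the probes of ND3, ND4L, ATP6, ATP8, COX2 and COX3 on chromosome 1 and those of the other 7 on the mitochondrial genome. The median difference was 0.61 for the first set and 0.41 for the second. Whether the place on chromosome 1 is a nuclear copy of mitochondrial DNA was not examined, so transcripts of the 2 places cannot be told apart here. The median over the 13, minus that of all genes, was 0.51, and it ranged from 0.31 without wild-type array 2 to 0.57 with quantile normalization. With limma's trend and robust prior, ND2 and ATP8 had adjusted p-values of 0.0318 and 0.0354, while 125 of all genes (0.652%) were called and 0 of the 88 nuclear genes.

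**Figure D4:**
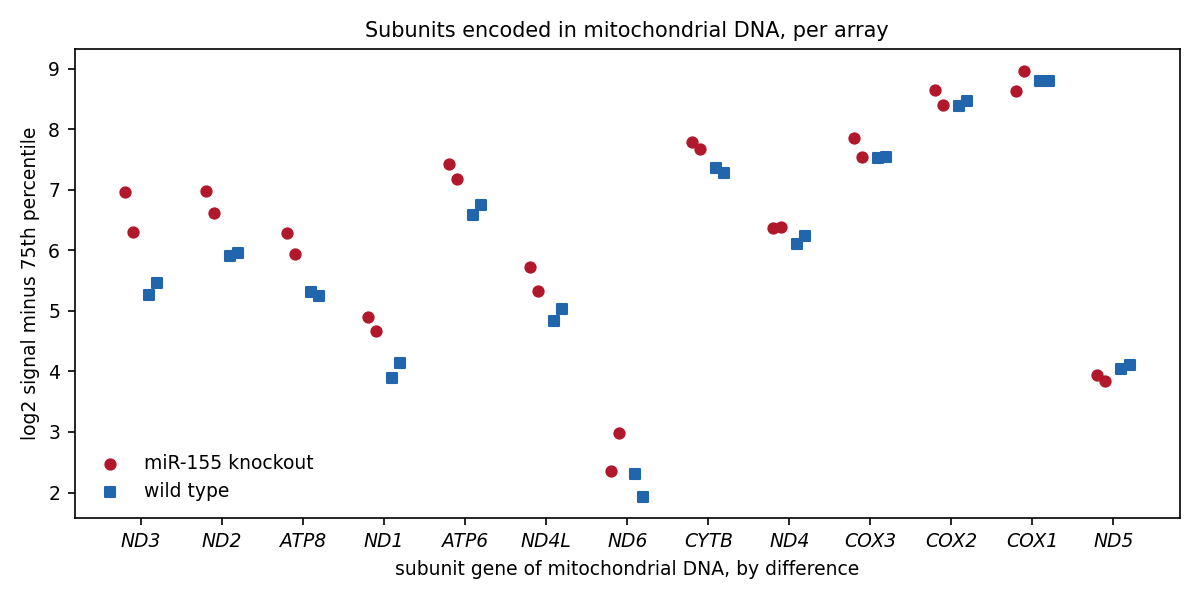
Log2 signal minus the array's 75th percentile of the 13 subunits encoded in mitochondrial DNA, 1 point per array, knockout (red circles) left of wild type (blue squares), ordered by difference. The knockout points lie above the wild-type points from ND3 to COX3, overlap them in COX2 and COX1 and lie below them in ND5.

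Marker genes of other cells were examined beside these differences. Of 5 tested B cell markers 4 had higher means in knockout cells, with summed levels of 1.84 and 1.99, against 1.44 and 1.1 in wild-type cells. Cd79b (1.18 ± 0.25 SE) contributed most to that sum, while Cd22 differed by -0.58 ± 0.14 (SE) without overlap. Both were given by corner-block probes. The summed level of 6 macrophage and dendritic cell markers was 3.76 and 3.74 in knockout cells, against 3.67 and 3.69 in wild-type cells. Of 6 tested markers of CD8, NK and gamma-delta T cells 2 had higher means, Cd8a by 1.32 ± 0.16 and Fcer1g by 0.95 ± 0.20 (SE), both without overlap and with limma adjusted p-values of 0.249 and 0.317. The other 4 had lower means, and the list, to whose sum Klrd1 (-0.45 ± 0.21 SE) contributed most, had summed levels of 3.53 and 3.86 in knockout cells, against 3.88 and 4.16 in wild-type cells. The 5 Th17 markers were lower at an unadjusted p under 0.05 in 5 of 5, beside 3.61% of all genes. Their median was -2.39 and their limma adjusted p-values were 0.249 or more. The 6 tested pan T cell markers had a median of -0.09. The part of these cell populations in the differences above was not tested. In the list of neutrophil, mast cell and erythroid markers Camp and Hba-a1 had differences of 0.41 and 0.25 with groups that overlapped, and S100a8, S100a9, Hbb-b1 and Mcpt8 were not tested, being too dim.

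Other genes of mitochondrial energy metabolism had medians near 0. The 27 assembly factors of the complexes, 4 of which are among the 88 genes, had 10 higher and 17 lower means and a median of -0.05. Cox17, a copper chaperone of complex IV, had a difference of 0.58 ± 0.19 and Ttc19, a factor of complex III, of 0.50 ± 0.18 (SE). They were the 2 of the 27 with an unadjusted p under 0.05, beside 7.76% of all genes higher and 3.61% lower. Cox17 was dim, at -3.60 and -3.84 in knockout cells, against -4.48 and -4.12 in wild-type cells. Ttc19 was given by a corner-block probe. The 13 genes of the tricarboxylic acid cycle had 8 higher and 5 lower means and a median of 0.08, and the 17 genes of import and carriers 7 higher and 10 lower and a median of -0.06. Both knockout arrays lay above both wild-type arrays for 6 assembly factors, 3 cycle genes and 4 import and carrier genes, beside 27.0% of all genes. They lay below for 8, 3 and 3 genes of these lists, beside 20.2% of all genes. limma called 0 genes of these lists at an adjusted p under 0.05.

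Nuclear regulators of mitochondrial genes had 3 higher and 8 lower means among 11 tested, beside 55.2% and 44.8% of all genes. Their median was -0.11, and limma called 0 at an adjusted p under 0.05. Of the 8, Yy1 was given by a corner-block probe. Ppargc1b, a coactivator of mitochondrial biogenesis, had values of -4.05 and -4.17 in knockout cells, against -3.69 and -3.33 in wild-type cells. This dim gene differed by -0.60 ± 0.18 (SE). Pprc1, a related coactivator, differed by -0.40 ± 0.14 (SE). Both had an unadjusted p under 0.05, beside 3.61% of all genes on the lower side. Their limma adjusted p was 0.384 for Ppargc1b and 0.424 for Pprc1. Tfam, which packages and transcribes mitochondrial DNA, and Polrmt, its RNA polymerase, differed by -0.10 ± 0.20 and 0.04 ± 0.12 (SE).

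Promoters of these genes are known for sites of the factors NRF1, GABPA and YY1. In RefSeq's promoter table for build GRCm38.p6 (250 bases before to 50 after each start), 74 of the 91 genes were found among 27025 genes, and letters were searched on both strands. The NRF1 motif, a near-palindrome shown in capitals below with any base at the fifth place of one strand, was in 18 of the 74 promoters (24.3%) and in 5.19% of all, the ETS letters CCGGAAG that GABPA binds in 16 (21.6%) and in 9.93% of all, and the YY1 letters AAGATGGC in 10 (13.5%) and in 3.19% of all. Among tested genes, the median difference was 0.01 for the 18 with the NRF1 motif and -0.02 for the 54 without, 0.01 and -0.02 with and without the ETS letters, and -0.01 and -0.02 with and without the YY1 letters. Nrf1 itself had a difference of 0.04 ± 0.17 and Gabpa, a gene of chromosome 16 as is miR-155, of -0.30 ± 0.12 (SE). Yy1 had values of 0.15 and 2.71 in knockout cells, against 2.91 and 2.67 in wild-type cells, from a corner-block probe.

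Of the promoters that hold the NRF1 motif, 4 are shown with the match in capitals, from genes of complex IV, V, I and II. They lie at chr5:115349096-115349135 (Cox6a1, minus strand), chr15:102671065-102671104 (Atp5g2, minus strand), chr4:123718260-123718299 (Ndufs5, minus strand) and chr9:50603904-50603943 (Sdhd, minus strand) on GRCm38.p6. A match is a description of the letters and no measured site.
Cox6a1: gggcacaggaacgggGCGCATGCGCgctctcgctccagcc
Atp5g2: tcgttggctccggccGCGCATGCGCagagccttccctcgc
Ndufs5: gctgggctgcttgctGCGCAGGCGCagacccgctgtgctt
Sdhd: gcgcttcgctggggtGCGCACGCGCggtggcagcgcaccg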

How the data were processed

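Expression was measured in 4 samples, 2 of knockout and 2 of wild-type cells. For each array the authors deposited the output of Agilent Feature Extraction (version 10.5.1.1, per the submitters' processing notes), whose processed signal is an intensity after background subtraction and spatial detrending, per the file headers. The multiplicative detrending surface in the deposited files is a linear ratio, per the file headers. The processing of the deposited matrix of log2 values is not given in the sources used here. The matrix differed from each array's own log2 processed signal by 1 constant for 100% of probes (tolerance 0.001). All 4 columns had a median of 5.54, which settled its scale and direction. The matrix served as an alternative, but it nearly repeats median scaling, so these do not count as separate checks.

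Files were processed in Python 3.11.15 with pandas 2.3.3. Outlier spots and control spots were dropped, spots of a probe were averaged, and log2 values were shifted by the array's 75th percentile. Names came from RefSeq's GRCm38.p6 gene table (26756 by accession, 3824 by symbol, 639 by synonym, 24462 kept the file's name); probe positions are those of the files, on mm9. Tested were probes that passed the background flag on each array of 1 genotype or more, with the brightest probe per gene by mean over the arrays. The genotypes were compared in R 4.3.3 with limma 3.58.1 (lmFit, eBayes, 2 residual and 2.21 prior degrees of freedom), with Benjamini-Hochberg adjustment over 19167 genes and a threshold of 0.05; the fit was tested on simulated data. With 2 arrays a group, the smallest two-sided p of an exact permutation test is 0.333. Counts and medians of lists are descriptions with no test. Summed levels of markers are log2 of summed signals relative to the 75th percentile.

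Genes were named by role, as tissue isoforms, as the non-overlapping genes of largest difference in each complex (2 in each direction), by an unadjusted p under 0.05, and where probes disagreed; 1 gene of the set, counted in all totals, is not reported here. Genes outside that rule, those encoded in mitochondrial DNA among them, were named after their values had been seen. The members and lists were chosen with earlier results of these data known. Same-numbered samples are not said to be paired, and their deviations from the group means correlated at -0.00112 over the tested genes. This value cannot tell whether they shared a culture or a batch. The alternatives were other scalings, background corrections, filters and summaries of probes, another prior, a replicate block, and leaving out each array or the corner blocks.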

Additional observations from a re-analysis of the deposited data

How the results depend on the processing

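limma called 0 of the 88 genes at an adjusted p under 0.05 in every alternative run. Over all genes it called 0, except for 125 with the trend and robust prior and 27 without wild type replicate 1 (0 to 27 when leaving out each array). The number of the 88 at an unadjusted p under 0.05, 2 as reported, was 4 of 132 probes with each probe on its own, 8 with the trend and robust prior, 10 with median scaling, 6 with normexp, 10 with the deposited matrix, 4 without the corner blocks, and 1 to 4 when leaving out each array. These are 3.03%, 9.09%, 11.4%, 6.82%, 11.4% and 4.88% of the members, beside 11.0%, 13.1%, 15.4%, 23.1%, 15.3% and 12.8% of all genes or probes in the first 6 settings, and 1.14% to 4.55% beside 7.49% to 11.3% when leaving out each array. The number higher without overlap, 12 as reported, was 22 with each probe on its own, 7 with knockout array 1 detrended, 4 with median scaling, 4 with the matrix, 7 without the corner blocks and 12 to 44 when leaving out each array, beside 26.9%, 24.2%, 12.0%, 12.2%, 25.1% and 34.3% to 48.8% of all genes or probes; the number lower, 20 as reported, was 63, 63 and 23 to 41 with median scaling, the matrix and leaving out each array, beside 43.2%, 43.0% and 27.2% to 39.4% of all genes. With 1 array left in a genotype, its spread is assumed to be that of the other. The median of the 88 was -0.18 with median scaling and -0.18 with the matrix. Minus that of all genes, the median of complex I was -0.083 in the reported setting and -0.17 with normexp. The median of complex III lay above that of all genes as reported (0.08 beside 0.03). With each probe on its own, the median of complex III minus that of all genes was -0.043, the opposite sign. Of the subunits of mitochondrial DNA, 2 passed with the trend and robust prior, an alternative added after seeing the data for these genes.

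Among genes whose groups did not overlap, median scaling and the matrix turned the sign of Atp5s (-0.034 and -0.032), COX3 (-0.013 and -0.011), Cyc1 (-0.079 and -0.077), Ndufa10 (-0.088 and -0.086), Ndufb9 (-0.077 and -0.075) and Ndufs6 (-0.089 and -0.087). Detrending knockout array 1 turned that of Cox5b (0.011), Cox7a1 (0.062), Ndufb9 (-0.029) and Ndufv2 (0.0033), and the mean of a gene's probes that of Ndufv3 (0.062). Median scaling and the matrix each lower the difference of every gene by a single constant, so small positive differences turn negative. The cause of the other changes was not tested.

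With the replicate number as a block, 0 of the 88 genes and 0 of all genes were called, 2 of the 88 had an unadjusted p under 0.05, and the median was 0.0004. The 88 genes were well above background on all 4 arrays, so none of their values is only a bound.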
